A study of Homo sapiens with 18 samples.

Results

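The genes described here are CTNNB1, which encodes beta-catenin, and 9 genes of the WNT pathway that lie next to it or are widely read as its targets: LGR5, LGR4, AXIN2, LEF1, TCF7, TCF7L2, RNF43, NKD1 and DKK1. They were chosen by name and were found by symbol in the DU145 table and by Ensembl identifier in the tables of C4-2B and 22Rv1. They are 10 of the 41440 genes present in any of the 3 tables. All 10 were in the 22Rv1 and DU145 tables, and 8 were in the C4-2B table, where LGR5 and DKK1 are absent and were not tested.

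Beta-catenin is both a structural protein of cadherin junctions and a transcriptional co-activator. Without WNT ligand, a cytoplasmic destruction complex built on APC and axin marks it for degradation; with ligand, it accumulates, enters the nucleus and binds TCF and LEF factors at their target genes. Its activity is set mainly through protein stability, which RNA counts do not measure. Several targets feed back on the pathway: AXIN2 rebuilds the destruction complex, RNF43 removes Frizzled receptors, NKD1 acts on dishevelled and DKK1 blocks the LRP co-receptors. Emerin, which EMD encodes and which sits in the inner nuclear membrane, is known to bind beta-catenin and to limit its build-up in the nucleus.

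The study's 18 RNA-seq libraries come from human prostate cancer lines, with 3 EMD knockdown and 3 control libraries in each of C4-2B, 22Rv1 and DU145. C4-2B was derived from LNCaP and is castration-resistant, 22Rv1 was grown out of a relapsed xenograft, and DU145 was isolated from a brain metastasis. The EMD knockdown groups received siRNA against EMD, and the control groups received a scrambled siRNA, both with a lipid reagent that was taken off after 24 h, per the labels' protocols. In DU145 the knockdown library names read shEMD, the usual mark of a short hairpin, and the labels do not settle which reagent those cells received. DU145 grew in DMEM and the other lines in RPMI-1640, and the labels do not say how long after transfection the cells were harvested. The triplicates are not described as separate cultures, so the p-values measure the spread between these libraries, which may be technical. Table and batch label both coincide with the cell line, so line and batch cannot be told apart, and levels in different lines are set side by side without a test. The libraries hold between 14722733 and 43311727 reads.

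EMD itself fell in every line. In C4-2B it had 6.38 to 10.0 CPM (TMM-scaled read counts relative to library size) in the knockdown libraries, against 67.2 to 75.1 CPM in controls. In 22Rv1 it had 17.5 to 21.2 CPM in knockdown libraries, against 60.9 to 69.7 CPM in controls, so the knockdown was shallowest there. In DU145 it had 4.61 to 5.01 CPM in knockdown libraries, against 40.7 to 47.7 CPM in controls. The log2 fold changes of EMD were -3.07, -1.73 and -3.21 in C4-2B, 22Rv1 and DU145. All 10 lineage genes checked (keratins, KLK3 and others) were in each table. Their summed level was lower after knockdown in every line, but not all of them went the same way. In C4-2B the sum was 5553 to 5681 CPM in knockdown and 5914 to 6016 CPM in control libraries, with KLK3 lower and with KRT18, EPCAM, CDH1 and FOLH1 higher on average after knockdown. In 22Rv1 it was 2661 to 2672 CPM in knockdown and 3321 to 3428 CPM in control libraries, with KRT8 lower and CDH1 and HOXB13 higher. The widest gap was in DU145, at 1023 to 1121 CPM in knockdown and 2066 to 2229 CPM in control libraries. That sum is mostly keratin RNA, with KRT8 at 403 CPM in knockdown and 1243 CPM in control libraries, while EPCAM was higher there, at 108 CPM in knockdown and 72.5 CPM in control libraries. Of the 9 fibroblast and endothelial markers, 4 were listed in C4-2B, 7 in 22Rv1 and 9 in DU145. Those listed summed to at most 25.1 CPM in any library, reached in C4-2B, where VWF averaged 21.5 CPM in controls. Of the 6 blood markers, 2, 3 and 6 were listed in the same order, summing to at most 3.62 CPM. The part of these markers in the results below was not tested. In bulk RNA, fewer cells with a transcript and less of it per cell cannot be told apart.

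To show the regulatory sequence that these data bear on, the 250 bases before the start site are given for 3 genes, from RefSeq on build GRCh38.p14, each read 5′ to 3′ on the gene's own strand. LGR4 and LEF1 are shown because they rose in both 22Rv1 and DU145, and DKK1 because it moved in opposite directions in those lines. Capitals mark a match to CTTTGAT or CTTTGAA, forms of the TCF/LEF core, searched on both strands. Other forms of the core were not searched and are not marked.
DKK1 promoter, chr10:52314031-52314280, plus strand: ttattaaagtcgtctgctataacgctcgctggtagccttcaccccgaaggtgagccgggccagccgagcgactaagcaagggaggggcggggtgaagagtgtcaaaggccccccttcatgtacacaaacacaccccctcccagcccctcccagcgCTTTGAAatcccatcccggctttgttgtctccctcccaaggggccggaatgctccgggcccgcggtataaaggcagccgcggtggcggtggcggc
LGR4 promoter, chr11:27472791-27473040, minus strand: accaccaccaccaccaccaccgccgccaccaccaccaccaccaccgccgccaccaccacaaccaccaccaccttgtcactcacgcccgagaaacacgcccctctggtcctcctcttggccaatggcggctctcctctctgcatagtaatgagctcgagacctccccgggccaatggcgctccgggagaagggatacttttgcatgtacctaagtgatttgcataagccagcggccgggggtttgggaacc
LEF1 promoter, chr4:108166302-108166551, minus strand: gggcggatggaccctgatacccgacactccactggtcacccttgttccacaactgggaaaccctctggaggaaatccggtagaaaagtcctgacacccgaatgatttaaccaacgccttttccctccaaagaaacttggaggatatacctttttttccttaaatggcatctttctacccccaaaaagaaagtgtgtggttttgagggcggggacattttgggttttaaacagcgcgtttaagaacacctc
The DKK1 window holds 1 match, CTTTGAA, 95 bases before the start, and the LGR4 and LEF1 windows hold none. Windows from 250 bases before to 50 bases after each start were at hand for 7 of these genes. AXIN2, NKD1 and LGR5 had no window in the set used and were not searched. Among the 7, DKK1 was the only one with a match to either string, in 1 of 11 windows (9.09%). Over all 35116 such RefSeq windows, 6.86% hold at least 1 match, so a match of this length is common. A match is a string of letters and not a measured binding site. Its lack in a short window says nothing of other forms of the core or of more distant elements.

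The 10 genes did not move as a block after EMD knockdown, and their direction depended on the line. In 22Rv1, 9 of the 10 passed the test: CTNNB1, LGR5, LGR4, LEF1, RNF43 and DKK1 rose, and AXIN2, TCF7 and NKD1 fell. In C4-2B, 3 of the 8 tested passed it, with AXIN2 higher and CTNNB1 and LGR4 lower. In DU145, 6 of the 9 tested passed it, with LGR4, LEF1 and TCF7L2 higher and AXIN2, TCF7 and DKK1 lower. These counts stand against a broad background: of all genes tested, 67.8% passed the same test in 22Rv1, 41.7% in C4-2B and 47.6% in DU145. The count in C4-2B is near its background, and in no line was the list's count itself tested. The median log2 fold change over the tested members of the list was 0.41 in 22Rv1, 0.04 in C4-2B and 0.07 in DU145, against -0.004, 0.01 and 0.01 over all genes tested in those lines. By size, 3 of the 10 passed the test with at least a 2-fold change in 22Rv1 (LGR5, AXIN2 and NKD1), none of 8 in C4-2B and 2 of 9 in DU145 (LGR4 and LEF1), where 18.4%, 6.63% and 8.22% of all genes did so. The libraries of the groups did not overlap for 8 of the 10 in 22Rv1, 3 of 8 in C4-2B and 6 of 9 in DU145, against 71.0%, 50.5% and 54.8% of all genes. Passing the test means an edgeR quasi-likelihood p, adjusted by Benjamini-Hochberg over all genes of the line, under 0.05.

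**Figure D1:**
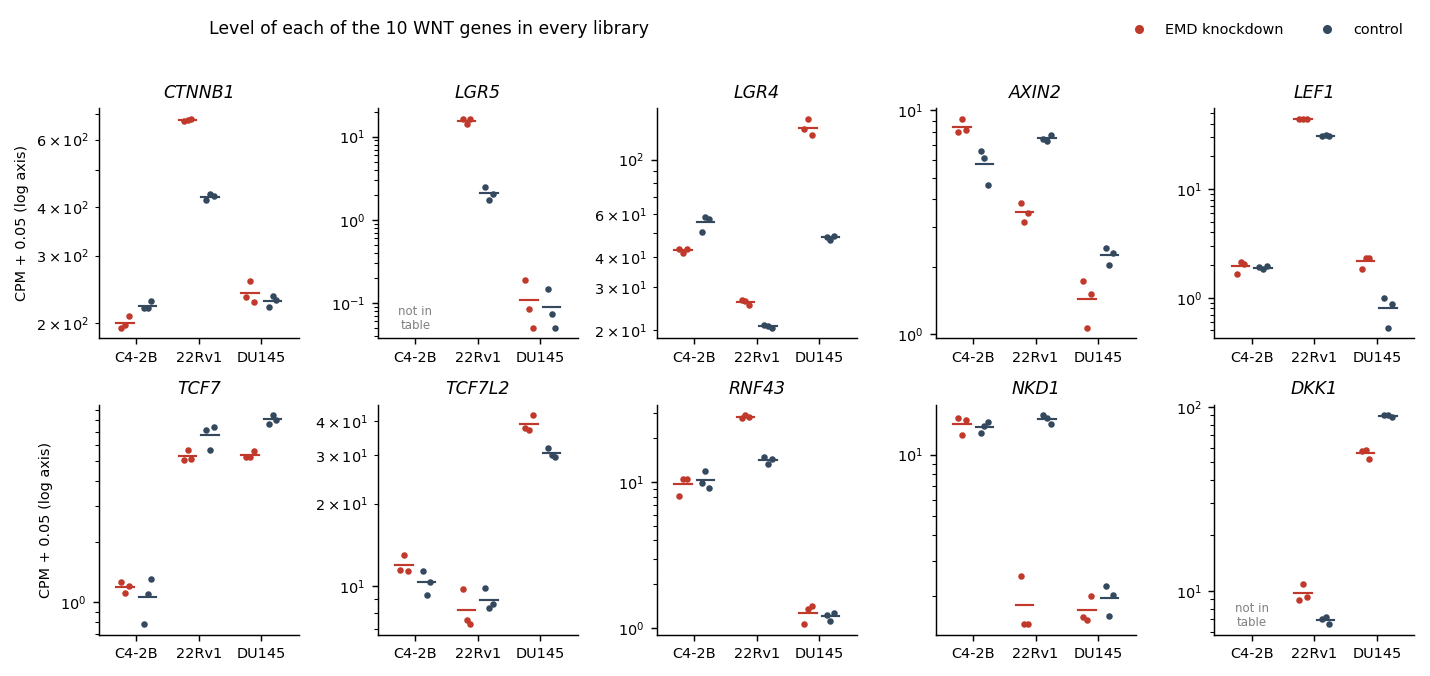
TMM-scaled CPM (plus 0.05, log axis) of the 10 genes in all 18 libraries, with EMD knockdown in red left of control in blue; bars are means of 3 libraries. Knockdown points lie clear above control points for CTNNB1 and LGR5 in 22Rv1 and for LGR4 in DU145, and clear below them for NKD1 in 22Rv1.

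Beta-catenin RNA rose in 22Rv1, fell slightly in C4-2B and did not pass the test in DU145. In 22Rv1, CTNNB1 (chromosome 3, 41194741 to 41260096, plus strand, on GRCh38 with GENCODE v29, as for the genes below) had 671.8, 676 and 679.7 CPM in the knockdown libraries, against 417.7, 434.3 and 429.1 CPM in controls. The knockdown values lay within a narrow band well above every control, a 1.58-fold difference that is 0.66 ± 0.03 on the log2 scale (value ± SE, here and below; edgeR adjusted p = 3.26e-13). The C4-2B libraries had 194.7, 198.5 and 209.4 CPM in knockdown libraries, against 218.8, 219.1 and 229.1 CPM in controls. The groups did not overlap, but the step was small, with a log2 difference of -0.15 ± 0.04 (edgeR adjusted p = 0.00515), and scaling by library totals alone took it out of the called genes (-0.10, adjusted p = 0.0675). In DU145 it had 234.4, 257 and 227.6 CPM in knockdown libraries, against 220.4, 236 and 230.3 CPM in controls. Those groups overlapped, with a log2 fold change of 0.07 ± 0.05 (edgeR adjusted p = 0.325); scaling by library totals (0.11, adjusted p = 0.0083) or leaving out knockdown 3 (0.13, adjusted p = 0.0146) brought it past the threshold.

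The 22Rv1 cells had the most CTNNB1 RNA with or without knockdown, and their knockdown group stood highest of the 6 groups, followed by the 22Rv1 control. The next levels, DU145 knockdown, DU145 control and C4-2B control, overlapped library by library, and C4-2B knockdown was lowest. The change in 22Rv1 was larger than that in the other lines: the fold change of CTNNB1 in C4-2B less that in 22Rv1 was -0.76 ± 0.06 on the log2 scale (edgeR interaction, adjusted p = 2.93e-13), and that in 22Rv1 less that in DU145 was 0.54 ± 0.06 (adjusted p = 6.39e-10). That in C4-2B less that in DU145 was -0.23 ± 0.06 (adjusted p = 0.00146). Of the 8 genes in all 3 tables, 6 differed in this way between C4-2B and 22Rv1, 4 between C4-2B and DU145, and 6 between 22Rv1 and DU145, where 56.1%, 45.7% and 55.6% of all genes did. CTNNB1 shares no exon bases with another annotated gene.

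The 5 genes whose levels followed CTNNB1 most closely were EIF5, BCLAF1, SRSF2, TRA2B and UMPS. Their Pearson correlations with it were 0.99, 0.98, 0.98, 0.98 and 0.98 over the 18 libraries, among 17151 genes compared, after the mean of each line was taken out. The points share libraries and the knockdown contrast, and the values are a description without a test. EIF5, a translation initiation factor, had log2 fold changes of -0.17 in C4-2B, 0.79 in 22Rv1 and 0.12 in DU145. SRSF2, a splicing factor, had -0.26, 1.27 and 0.15 in the same order.

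Among the receptors for R-spondins, the secreted proteins that amplify WNT signals, LGR5 rose in 22Rv1 and LGR4 rose most in DU145. LGR5 (chromosome 12, 71439770 to 71586310, plus strand), a WNT target that marks stem cells of the mouse intestine, had 16.3, 14.1 and 16.4 CPM in the 22Rv1 knockdown libraries, against 2.43, 1.69 and 1.99 CPM in controls. Every knockdown library was several times above every control, a 7.504-fold difference that rests on 911 reads in knockdown and 161 reads in control libraries. On the log2 scale the LGR5 difference was 2.91 ± 0.15 (edgeR adjusted p = 8.81e-13). In DU145, LGR5 had 5, 1 and 0 reads in knockdown libraries, against 2, 1 and 0 reads in controls, which is too few to test. A fit of the 12 libraries of 22Rv1 and DU145, in which 56.6% of all genes differed between the lines, gave a difference between those lines of 2.06 ± 1.29 on the log2 scale, which did not pass the test (edgeR adjusted p = 0.179) and rests on those few DU145 reads.

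LGR4 (chromosome 11, 27365961 to 27472775, minus strand), the paralogue of LGR5 with the wider expression, had 133.1, 146.7 and 125.6 CPM in the DU145 knockdown libraries, against 48.3, 46.9 and 48.8 CPM in controls. The controls were tightly grouped and all knockdown libraries stood far above them, a 2.81-fold difference (log2 1.49 ± 0.06, edgeR adjusted p = 3.8e-18). In 22Rv1 it had 26.7, 26.4 and 25.4 CPM in knockdown libraries, against 21.0, 20.8 and 20.4 CPM in controls, a smaller rise without overlap (log2 0.34 ± 0.07, edgeR adjusted p = 0.000405). In C4-2B it had 42.9, 41.3 and 43.2 CPM in knockdown libraries, against 50.5, 58.4 and 57.3 CPM in controls, so there it fell (log2 -0.39 ± 0.07, edgeR adjusted p = 4.68e-05). LGR4 was the only one of the 10 genes that passed the test in every line with a difference between lines in all 3 pairs. Its fold change in C4-2B less that in DU145 was -1.89 ± 0.08, in 22Rv1 less DU145 -1.22 ± 0.09 and in C4-2B less 22Rv1 -0.68 ± 0.09 on the log2 scale, with edgeR adjusted p of 1.37e-19, 4.59e-14 and 8.14e-08. The 6 groups ranked from DU145 knockdown through C4-2B control, DU145 control, C4-2B knockdown and 22Rv1 knockdown to 22Rv1 control, with no overlap between neighbours.

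Per kilobase of transcript, a scale that depends on the length taken for each gene, LGR4 stood above LGR5 in 22Rv1 controls. There LGR4 had 4.02 CPM per kb and LGR5 had 0.727 CPM per kb. In the 22Rv1 knockdown libraries LGR5 reached 5.57 ± 0.47 CPM per kb and LGR4 5.06 ± 0.13 CPM per kb (SD, n = 3). Those values rest on median transcript lengths of 2800 bases for LGR5 and 5163 bases for LGR4. Their merged exon lengths are 5251 and 6340 bases, so the order of these genes in knockdown libraries depends on the length used. In DU145, LGR4 averaged 26.2 CPM per kb in knockdown and 9.30 CPM per kb in control libraries. RSPO3, a ligand of these receptors, rose in DU145, where it had 5.17 ± 0.44 CPM in knockdown and 0.26 ± 0.06 CPM in control libraries (SD, n = 3), from 520 and 26 reads. Its fitted log2 fold change was 4.25 ± 0.22 (edgeR adjusted p = 5e-15). LGR6, the third receptor of the family, also rose in DU145, with 0.626 CPM in knockdown and 0.181 CPM in control libraries (log2 1.87 ± 0.49, edgeR adjusted p = 0.00217). Both passed the filter on low counts through the knockdown libraries alone. RSPO4, another ligand, fell in 22Rv1, with 13.0 CPM in knockdown and 25.1 CPM in control libraries (log2 -0.97 ± 0.09, edgeR adjusted p = 1.18e-08), and was named after its values were seen.

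RNF43 (chromosome 17, 58352500 to 58417595, minus strand) is the ubiquitin ligase that removes Frizzled receptors from the membrane and that R-spondins restrain. It rose in 22Rv1, with 27.7, 28.8 and 28.0 CPM in knockdown libraries, against 14.9, 13.3 and 14.5 CPM in controls. All knockdown values lay near the same level, a 1.97-fold difference without overlap (log2 0.98 ± 0.08, edgeR adjusted p = 1.39e-09). RNF43 in C4-2B stood at 7.96, 10.5 and 10.6 CPM in knockdown libraries, against 9.92, 12.0 and 9.06 CPM in controls, and did not pass the test (log2 -0.09 ± 0.15, edgeR adjusted p = 0.671). RNF43 in DU145 stood at 1.02, 1.297 and 1.37 CPM in knockdown libraries, against 1.19, 1.08 and 1.22 CPM in controls, again with overlap (log2 0.08 ± 0.27, edgeR adjusted p = 0.84). Those misses do not show that RNF43 stayed the same, since the standard errors there are wider. The RNF43 change in 22Rv1 did differ from that in C4-2B (C4-2B less 22Rv1, log2 -1.02 ± 0.17, adjusted p = 5.07e-06) and from that in DU145 (22Rv1 less DU145, 0.83 ± 0.23, adjusted p = 0.00289). The 6 groups ranked from 22Rv1 knockdown and 22Rv1 control through C4-2B to DU145, and the groups of C4-2B overlapped, as did those of DU145. RNF43 shares 143 exon bases with SUPT4H1 on the same strand, which also rose in 22Rv1 (71.5 CPM in knockdown, 50.04 CPM in control libraries, log2 0.52), and 4326 exon bases with AC004687.2, also on the same strand. AC004687.2 was listed at 0.337 CPM in knockdown and 0.935 CPM in control libraries of C4-2B, 0.271 CPM in knockdown and 0.194 CPM in control libraries of 22Rv1, and 0.194 CPM in knockdown and 0.389 CPM in control libraries of DU145, where RNF43 itself is near 1 CPM. How much of the RNF43 value comes from reads in the shared bases was not tested. ZNRF3, the paralogue of RNF43, had 32.6 ± 1.72 CPM in knockdown and 32.4 ± 1.24 CPM in control libraries of 22Rv1 (SD, n = 3) and passed the test in none of the lines.

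The DNA-binding partners of beta-catenin changed in 22Rv1 and DU145, where LEF1 rose and TCF7 fell, while none of them passed the test in C4-2B. LEF1 (chromosome 4, 108047545 to 108168956, minus strand), a factor that WNT signals themselves induce, had 43.8, 44.4 and 44.3 CPM in the 22Rv1 knockdown libraries, against 30.5, 31.1 and 30.8 CPM in controls. Both groups were tight and apart (log2 0.52 ± 0.06, edgeR adjusted p = 1.49e-07). In DU145 LEF1 was scarce but rose, with 1.79, 2.28 and 2.27 CPM in knockdown libraries, against 0.953, 0.478 and 0.831 CPM in controls. That is a 2.88-fold difference from 211 reads in knockdown and 68 reads in control libraries (log2 1.53 ± 0.28, edgeR adjusted p = 4.51e-05). LEF1 in C4-2B had 1.62, 2.07 and 2.01 CPM in knockdown libraries, against 1.85, 1.78 and 1.90 CPM in controls, with full overlap (log2 0.04 ± 0.33, edgeR adjusted p = 0.934). The fold change of LEF1 in C4-2B less that in DU145 was -1.53 ± 0.28 (adjusted p = 2.57e-05) and in 22Rv1 less DU145 -1.10 ± 0.21 (adjusted p = 4.05e-05), whereas C4-2B and 22Rv1 were not told apart (-0.42 ± 0.22, adjusted p = 0.101). The 22Rv1 groups stood far above the other lines in LEF1 level; DU145 knockdown, C4-2B knockdown and C4-2B control overlapped, and DU145 control was lowest.

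TCF7 (chromosome 5, 134114711 to 134151865, plus strand), which encodes TCF-1, fell in DU145, with 5.22, 5.22 and 5.57 CPM in knockdown libraries, against 7.63, 8.41 and 7.98 CPM in controls. The groups were well apart (log2 -0.59 ± 0.10, edgeR adjusted p = 1.51e-05). In 22Rv1 it had 5.03, 5.63 and 5.06 CPM in knockdown libraries, against 7.12, 5.62 and 7.35 CPM in controls. Knockdown 2 and control 2 met at the same level, and the fall (log2 -0.37 ± 0.15, edgeR adjusted p = 0.0331) was lost with DESeq2 (adjusted p = 0.0737) and without knockdown 1, knockdown 3, control 1 or control 3 (adjusted p = 0.082, 0.0735, 0.0965 and 0.13). C4-2B had little TCF7, with 1.21, 1.06 and 1.15 CPM in knockdown libraries, against 0.728, 1.05 and 1.25 CPM in controls, and did not pass the test (log2 0.16 ± 0.43, edgeR adjusted p = 0.802). DU145 control was highest in TCF7, then 22Rv1 control, then the overlapping knockdown groups of DU145 and 22Rv1, and last the overlapping groups of C4-2B. The TCF7 changes were not told apart between any pair of lines. TCF7 shares 210 exon bases with the more abundant SKP1 on the opposite strand, and the strandedness of the libraries is not given in the sources used here.

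TCF7L2 (chromosome 10, 112950250 to 113167678, plus strand), the factor usually called TCF-4, rose in DU145, with 37.7, 37.1 and 41.9 CPM in knockdown libraries, against 31.8, 30.03 and 29.5 CPM in controls. Every knockdown library was above every control (log2 0.36 ± 0.06, edgeR adjusted p = 1.17e-05). C4-2B had TCF7L2 at 11.5, 12.9 and 11.3 CPM in knockdown libraries, against 11.3, 9.28 and 10.4 CPM in controls (log2 0.21 ± 0.13, edgeR adjusted p = 0.217). In 22Rv1 it had 9.73, 7.53 and 7.24 CPM in knockdown libraries, against 9.79, 8.31 and 8.61 CPM in controls (log2 -0.12 ± 0.14, edgeR adjusted p = 0.459). The groups overlapped in both of those lines, and the levels of C4-2B and 22Rv1 ran into each other below the 2 DU145 groups. The change in 22Rv1 less that in DU145 was -0.53 ± 0.14 (edgeR adjusted p = 0.00178).

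Taken as a share of the summed CPM per kilobase of the TCF/LEF family, LEF1 was higher after knockdown in both 22Rv1 and DU145. In 22Rv1, LEF1 held 85.7% ± 0.71 of the family in knockdown and 76.3% ± 1.01 in control libraries (SD, n = 3 each), and its lowest knockdown library, at 84.9%, exceeded its highest control, at 77.5%. In DU145, LEF1 held 9.16% ± 1.04 in knockdown and 3.62% ± 1.13 in control libraries, and TCF7L2 held 66.5% ± 1.21 in knockdown and 57.6% ± 0.84 in control libraries. TCF7 held 12.0% in knockdown and 20.0% in control libraries of DU145. TCF7L1, which acts mostly as a repressor, held 2.78% in knockdown and 6.37% in control libraries of 22Rv1 and 12.3% in knockdown and 18.8% in control libraries of DU145. In C4-2B, where TCF7L1 was not in the table, TCF7L2 held 65.3% ± 1.94 in knockdown and 63.1% ± 3.08 in control libraries, and the shares of all 3 factors overlapped. Shares of one family sum to 100%, so these values are not independent and are given without a test. They also depend on the transcript length used for each gene, which is 1488 bases for LEF1 and 3778 bases for TCF7L2.

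**Figure D2:**
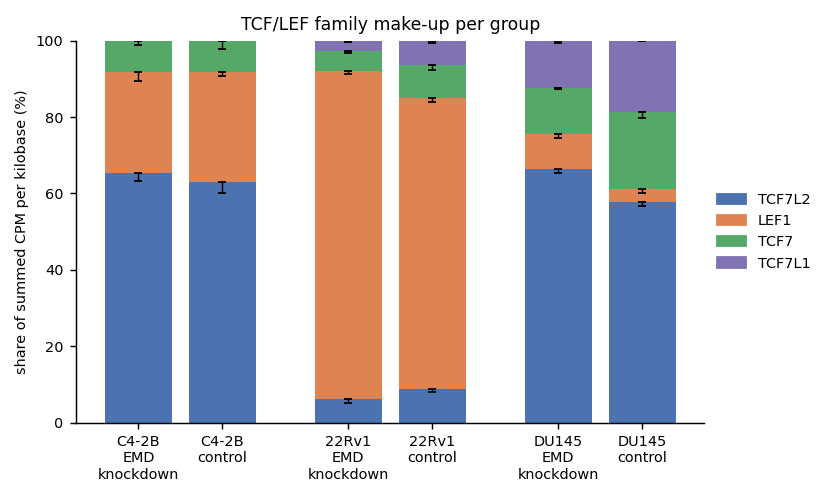
Share of each factor in the summed CPM per kilobase of the TCF/LEF family (percent, mean of 3 libraries, error bars 1 SD) in EMD knockdown and control groups of the 3 lines. LEF1 fills most of the 22Rv1 bars, with 85.7% after knockdown and 76.3% in control, while TCF7L2 is the largest part in C4-2B and DU145.

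Of the feedback inhibitors, AXIN2, a widely used readout of beta-catenin activity, rose in C4-2B and fell in 22Rv1 and DU145. In 22Rv1, AXIN2 (chromosome 17, 65528563 to 65561647, minus strand) had 3.81, 3.12 and 3.41 CPM in knockdown libraries, against 7.43, 7.25 and 7.72 CPM in controls. The groups did not meet (log2 -1.11 ± 0.15, edgeR adjusted p = 2.02e-06). In DU145 it had 1.68, 1.02 and 1.46 CPM in knockdown libraries, against 2.38, 1.98 and 2.26 CPM in controls (log2 -0.65 ± 0.23, edgeR adjusted p = 0.0205). That fall rests on 142 reads in knockdown and 209 reads in control libraries and missed the threshold without knockdown 2 (-0.49, adjusted p = 0.109) or control 3 (-0.60, adjusted p = 0.0905). In C4-2B it had 7.96, 9.11 and 8.08 CPM in knockdown libraries, against 6.55, 6.08 and 4.57 CPM in controls. Every knockdown library was above every control (log2 0.56 ± 0.17, edgeR adjusted p = 0.0108), but the call was lost without knockdown 2 (0.49, adjusted p = 0.0561) or control 3 (0.41, adjusted p = 0.0837).

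The opposite directions of AXIN2 were tested directly: its fold change in C4-2B less that in 22Rv1 was 1.72 ± 0.25 (edgeR adjusted p = 5.99e-07), and that in C4-2B less DU145 was 1.19 ± 0.27 (adjusted p = 0.000431). The falls in 22Rv1 and DU145 were not told apart (-0.53 ± 0.28, adjusted p = 0.105). In level, the 6 groups ranked from C4-2B knockdown through 22Rv1 control, C4-2B control, 22Rv1 knockdown and DU145 control to DU145 knockdown, with no overlap between neighbours. In both lines with a called CTNNB1 change, AXIN2 moved the other way: CTNNB1 was higher and AXIN2 lower in 22Rv1 knockdown libraries, and CTNNB1 was lower and AXIN2 higher in those of C4-2B. Both C4-2B calls were lost in some alternatives. In 22Rv1, LGR5, LGR4, LEF1, RNF43 and DKK1 rose with CTNNB1, while TCF7 and NKD1 fell with AXIN2.

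NKD1 (chromosome 16, 50548330 to 50649249, plus strand), which binds dishevelled and damps WNT signals, showed the largest fall of the 10 genes in 22Rv1. It had 2.47, 1.41 and 1.41 CPM in the knockdown libraries, against 15.6, 15.1 and 14.1 CPM in controls. All knockdown libraries were far below all controls, at 0.123 of the control level (log2 -3.02 ± 0.17, edgeR adjusted p = 4.11e-12), from 108 reads in knockdown and 1145 reads in control libraries. NKD1 in C4-2B stood at 15.2, 12.5 and 14.7 CPM in knockdown libraries, against 12.8, 13.8 and 14.4 CPM in controls (log2 0.04 ± 0.12, edgeR adjusted p = 0.799). NKD1 in DU145 stood at 1.54, 1.47 and 1.96 CPM in knockdown libraries, against 2.19, 1.55 and 1.99 CPM in controls (log2 -0.18 ± 0.23, edgeR adjusted p = 0.557). The groups overlapped in both. The NKD1 change in C4-2B less that in 22Rv1 was 3.11 ± 0.23 (adjusted p = 1.56e-13) and that in 22Rv1 less DU145 was -2.92 ± 0.27 (adjusted p = 3.64e-11). In 22Rv1 controls NKD1 stood at the level of C4-2B, and in 22Rv1 knockdown libraries at that of DU145, overlapping them in both cases.

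DKK1 (chromosome 10, 52314296 to 52318042, plus strand), the secreted LRP antagonist whose promoter holds the match shown above, moved in opposite directions in its 2 tables. In DU145, where it was most abundant, it had 57.6, 58.4 and 52.4 CPM in knockdown libraries, against 89.9, 90.2 and 87.8 CPM in controls. The fall was far outside the spread of either group (log2 -0.67 ± 0.05, edgeR adjusted p = 1.48e-11). In 22Rv1 it had 8.92, 10.8 and 9.24 CPM in knockdown libraries, against 6.95, 7.12 and 6.53 CPM in controls, a rise without overlap (log2 0.49 ± 0.13, edgeR adjusted p = 0.00194). The DKK1 change in 22Rv1 less that in DU145 was 1.15 ± 0.10 in a fit of those 12 libraries that was added after the data were seen (edgeR adjusted p = 1.61e-10). Both DU145 groups stood above both 22Rv1 groups in level, and no neighbours overlapped. DKK1 shares 212 exon bases with PRKG1-AS1 on the opposite strand, which had 2.40 CPM in knockdown and 1.97 CPM in control libraries of DU145.

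**Figure D3:**
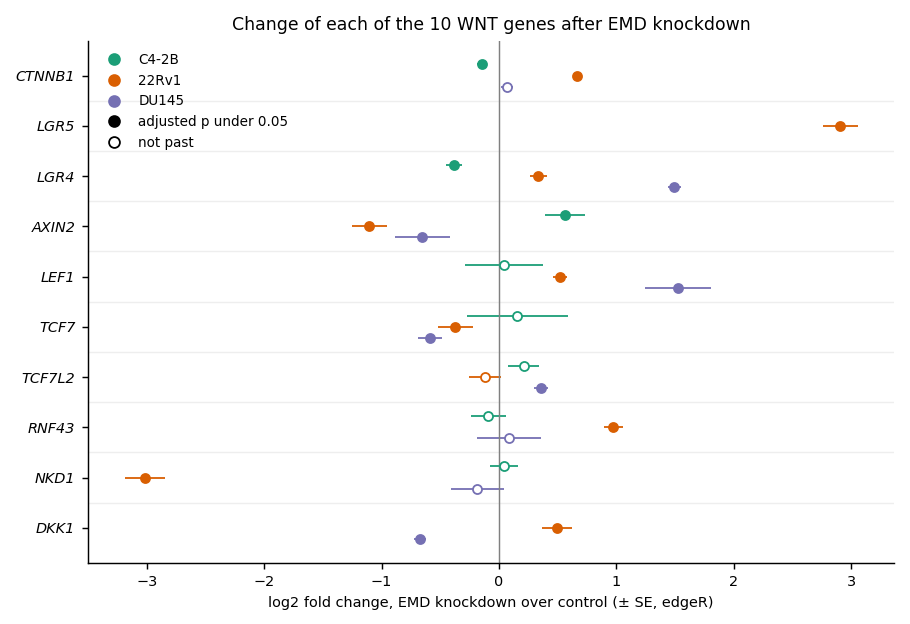
Log2 fold change of EMD knockdown over control for the 10 genes (points, with bars of 1 SE from edgeR) in C4-2B, 22Rv1 and DU145; filled points have an adjusted p under 0.05. The largest changes are NKD1 (-3.02) and LGR5 (2.91), both in 22Rv1, and AXIN2 lies right of 0 in C4-2B and left of 0 in the other lines.

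In 22Rv1 the fold change of a gene moved with its level, which bears on the genes described here. The median log2 fold change of all genes was -0.79 below 0.5 CPM, -0.33 between 2 and 10 CPM, and 0.15 at 100 CPM and above, so scarce genes were on the whole lower and abundant genes higher after knockdown. Less the median of its own level window, LGR5 was at 3.24, NKD1 at -2.69, RNF43 at 1.01, DKK1 at 0.82, AXIN2 at -0.77 and CTNNB1 at 0.52. Of the falls, that of TCF7 shrank to -0.04, and TCF7L2 changed sign to 0.22, in a calculation added after the data were seen. The window medians ran only between -0.03 and 0.19 in C4-2B and between -0.001 and 0.03 in DU145.

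**Figure D4:**
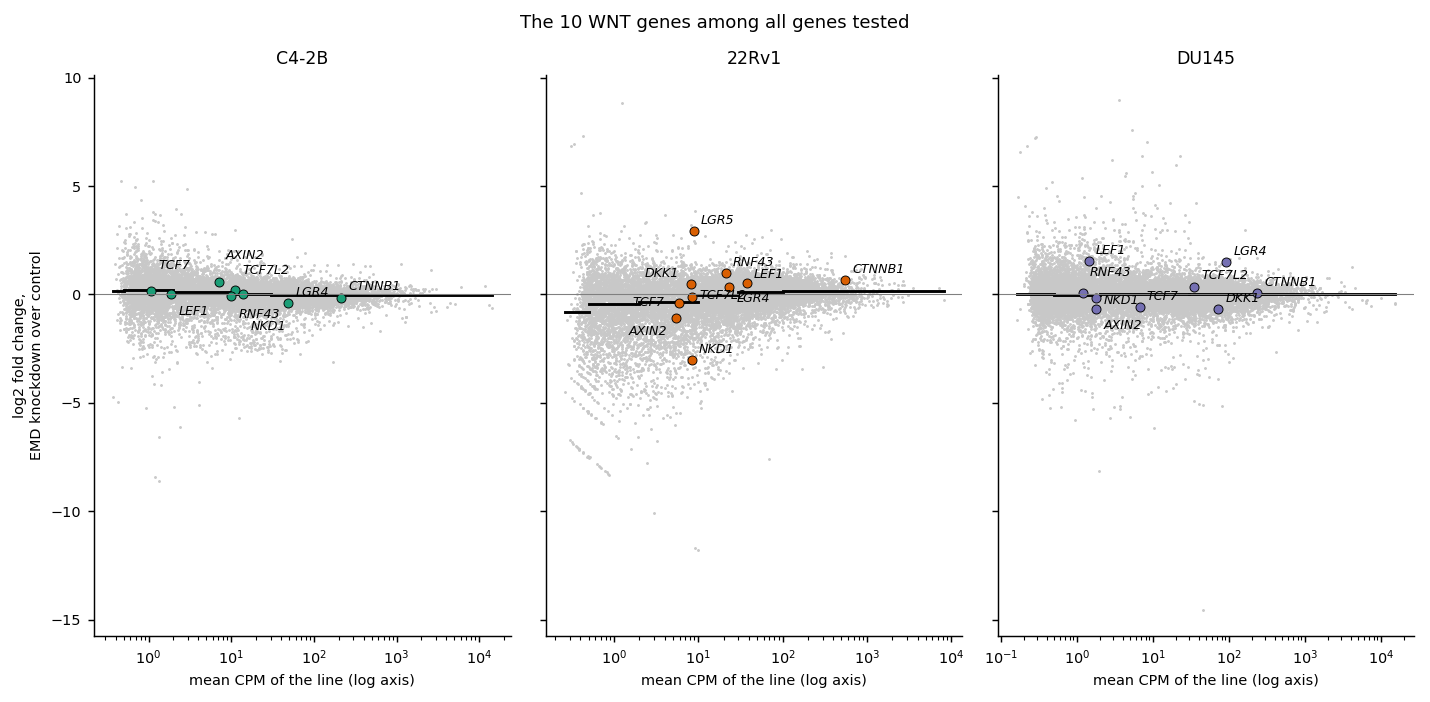
Log2 fold change of EMD knockdown over control against mean CPM (log axis) for every gene tested in a line (grey), with the 10 genes as coloured points and the median of each level window as black steps. In 22Rv1 the steps climb from -0.79 for the scarcest genes to 0.15 for the most abundant, and LGR5 and NKD1 lie far above and below them.

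The wider pathway was followed with 112 other WNT genes in 8 lists. In 22Rv1, 25 of the 94 tested rose and 51 fell, at a median of -0.30 on the log2 scale; over all genes tested there, 33.5% rose and 34.3% fell. Of those 94, 16 passed the filter on low counts through the control libraries alone, so that they had to be lower, and all 16 fell; of the 78 past the filter in both groups, 25 rose and 35 fell. In C4-2B, 16 of 74 rose and 15 fell (median 0.04), where 19.4% of all genes rose and 22.3% fell. The C4-2B counts were 10 and 14 without control 3, and 21 and 13 with scaling by library totals. In DU145, 27 of 93 rose and 26 fell (median 0.03), where 24.1% of all genes rose and 23.6% fell; of the 82 past the filter in both groups, 23 rose and 26 fell. Of the 51 that fell in 22Rv1, 16 were ligands or secretion genes and 7 were inhibitors; the counts of these lists were not tested against other genes.

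The WNT ligands and the proteins that secrete them mostly fell in 22Rv1: of 19 tested, 16 fell and 1 rose, at a median of -2.02 on the log2 scale. Of all genes in 22Rv1, 34.9% of those at 0.5 to 2 CPM fell and 9.17% rose. At 2 to 10 CPM, 46.3% fell and 17.2% rose. In that line 8 of the 19 passed the filter on low counts only through the control libraries, and all of those had to be lower; of the 11 that passed it in both groups, 8 fell and 1 rose. WNT6 had 1 read in the knockdown libraries and 382 reads in controls, a ratio of 0.0035 with a 95% counting interval of 8.77e-05 to 0.0195. WNT7A had 2 reads in knockdown and 142 reads in control libraries, a ratio of 0.019 (0.0022 to 0.069). WNT1 and WNT11 had 5 and 4 reads in knockdown against 236 and 183 reads in control libraries. WNT6, WNT7A, WNT1 and WNT11 are among the 8 that passed the filter through controls alone, so their direction was fixed. The median of -2.02 also includes those 8. Chosen after their values were seen, WLS, the carrier of WNT proteins to the cell surface, fell to 3.08 CPM in knockdown against 16.7 CPM in control libraries (log2 -2.43 ± 0.12, edgeR adjusted p = 8.21e-13), and WNT2, the only ligand that rose, had 13.4 CPM in knockdown and 4.74 CPM in control libraries (log2 1.51 ± 0.15, edgeR adjusted p = 4.45e-08).

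Secreted and membrane inhibitors also fell in 22Rv1, 7 of the 7 tested, where 34.3% of all genes tested fell. Of these 7, 4 passed the filter through controls alone and so had to be lower, SFRP1, APCDD1 and DKK3 among them. The 3 that passed it in both groups also fell. Leaving out control 1, control 3 or knockdown 1 gave 6 falls among 7 tested. Without control 2 it was 6 of 8, and without knockdown 2 or knockdown 3 it was 7 of 8. NOTUM, the enzyme that inactivates WNT ligands by removing their lipid, had 6.02 ± 1.10 CPM in knockdown and 26.7 ± 1.44 CPM in control libraries (SD, n = 3; log2 -2.17, edgeR adjusted p = 1.3e-12). SFRP1, a decoy that binds ligands, had 17 reads in knockdown and 550 reads in control libraries, and APCDD1 had 26 and 186 reads in the same order. DKK3 had 3 reads in knockdown and 143 reads in control libraries, a ratio of 0.028 with a 95% counting interval of 0.0057 to 0.083. DKK1 rose in 22Rv1, whereas the 3 inhibitors of this list past the filter in both groups fell with all libraries in the fit.

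Among Frizzled receptors and co-receptors, 8 of the 15 tested in 22Rv1 fell and 1 rose, or 7 and 1 of the 14 that passed the filter in both groups. Of all genes tested in 22Rv1, 34.3% fell and 33.5% rose, here and for the lists that follow. PTK7, a co-receptor of planar polarity signals, had 30.5 ± 3.902 CPM in knockdown and 102 ± 4.47 CPM in control libraries (SD, n = 3; log2 -1.75), and FZD2 had 3.96 CPM in knockdown and 13.9 CPM in control libraries (log2 -1.79). ROR1, a receptor for WNT5A, also fell (log2 -2.27), and its paralogue ROR2, which passed the filter through controls alone, had 3 reads in knockdown and 181 reads in control libraries, a ratio of 0.022 with a 95% counting interval of 0.00449 to 0.0653. Of other target genes, 7 of 13 fell in 22Rv1 and 2 rose, or 4 and 2 of the 10 that passed the filter in both groups; EPHB2, an ephrin receptor, had 5.42 CPM in knockdown and 23.0 CPM in control libraries (log2 -2.09). FGF18, BMP4 and JAG1 fell too (log2 -3.66, -3.16 and -2.10), all 3 with controls alone past the filter. Of the nuclear cofactors, 10 of 16 rose and 5 fell, in a line where 49.8% of all genes at 30 to 100 CPM rose and 27.3% fell, and 55.2% of those at 100 CPM and above rose and 24.6% fell. Among them, CREBBP, a histone acetyltransferase that beta-catenin recruits, had 113 ± 5.09 CPM in knockdown and 55.9 ± 3.64 CPM in control libraries (log2 1.01), and the co-repressor TLE2 had 30.8 ± 0.83 CPM in knockdown and 61.9 ± 1.81 CPM in control libraries (log2 -1.01). In the destruction complex list 7 of 15 rose and 6 fell, a balance that was 3 and 7 with scaling by library totals, 4 and 6 in the fit of all 18 libraries and 4 and 5 without knockdown 3; NKD2, a relative of NKD1, was among those that fell (log2 -1.33).

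In DU145 the pathway genes split more evenly, and the adhesion partners of beta-catenin held some of the larger falls. Of the 7 adhesion genes, 4 fell and none rose, where 23.6% of all genes tested fell and 24.1% rose. Only 3 fell with scaling by library totals, with a replicate block, and without control 3, knockdown 1 or knockdown 3. The keratin genes KRT8 and KRT18 were lower in the same libraries, and CDH1 is also 1 of the 10 lineage genes above. The part of this shift in lineage genes in the adhesion list was not tested. CDH1, which encodes the E-cadherin that holds beta-catenin at the membrane, had 5.04 ± 0.49 CPM in knockdown and 22.6 ± 0.51 CPM in control libraries (SD, n = 3; log2 -2.17 ± 0.08, edgeR adjusted p = 4.72e-18). JUP, or plakoglobin, a close relative of beta-catenin, had 14.0 CPM in knockdown and 40.3 CPM in control libraries (log2 -1.53), and the P-cadherin gene CDH3 had 28.9 CPM in knockdown and 72.9 CPM in control libraries (log2 -1.34). The TLE family genes TLE3 (log2 -1.96) and TLE5 (log2 -1.37) also fell, among 7 nuclear cofactors that fell and 3 that rose. Of 13 ligands tested, 4 rose and 3 fell, with WNT10B (log2 1.77), WNT8B (log2 1.28) and WNT5B (log2 1.17) among the rises. These counts were 4 and 5 with RLE size factors, 3 and 2 with DESeq2, and 3 and 3 with no filter. WNT8B passed the filter through the knockdown libraries alone, with 42 reads in knockdown and 16 reads in control libraries (edgeR adjusted p = 0.0421). Of 15 receptors, 5 rose and 6 fell, or 4 and 6 of the 14 that passed the filter in both groups, with FZD7 (log2 1.33) higher and FZD2 (log2 -1.34) and FZD9 (log2 -1.31) lower. ROR2 (log2 1.09) passed it through the knockdown libraries alone, with 79 reads in knockdown and 34 reads in control libraries. The inhibitors DKK3 (log2 -2.16), NOTUM (log2 1.69) and KREMEN2 (log2 1.34) and the targets EPHB2 (log2 -1.60), SP5 (log2 -1.53), SOX9 (log2 -1.10) and BMP4 (log2 1.12) changed by more than 2-fold as well.

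In C4-2B, changes of at least 2-fold were few in these lists. WNT5A fell, with 5.24 ± 1.14 CPM in knockdown and 11.4 ± 1.31 CPM in control libraries (SD, n = 3; log2 -1.12), and WNT4 rose, with 6.58 ± 0.33 CPM in knockdown and 3.08 ± 0.49 CPM in control libraries (log2 1.10). SOX9, a transcription factor and WNT target, had 14.8 CPM in knockdown and 40.8 CPM in control libraries (log2 -1.47). CTNNA2, which encodes an alpha-catenin of junctions, fell in C4-2B (log2 -1.72) and rose in 22Rv1 (log2 1.05). Of all genes tested in C4-2B, 19.4% rose and 22.3% fell. In the destruction complex list of C4-2B, 6 of 15 rose and 3 fell, at a median of 0.11 on the log2 scale. The number that rose was 3 without control 1, control 3 or knockdown 3, and scaling by library totals gave 7 that rose and 1 that fell.

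**Figure D5:**
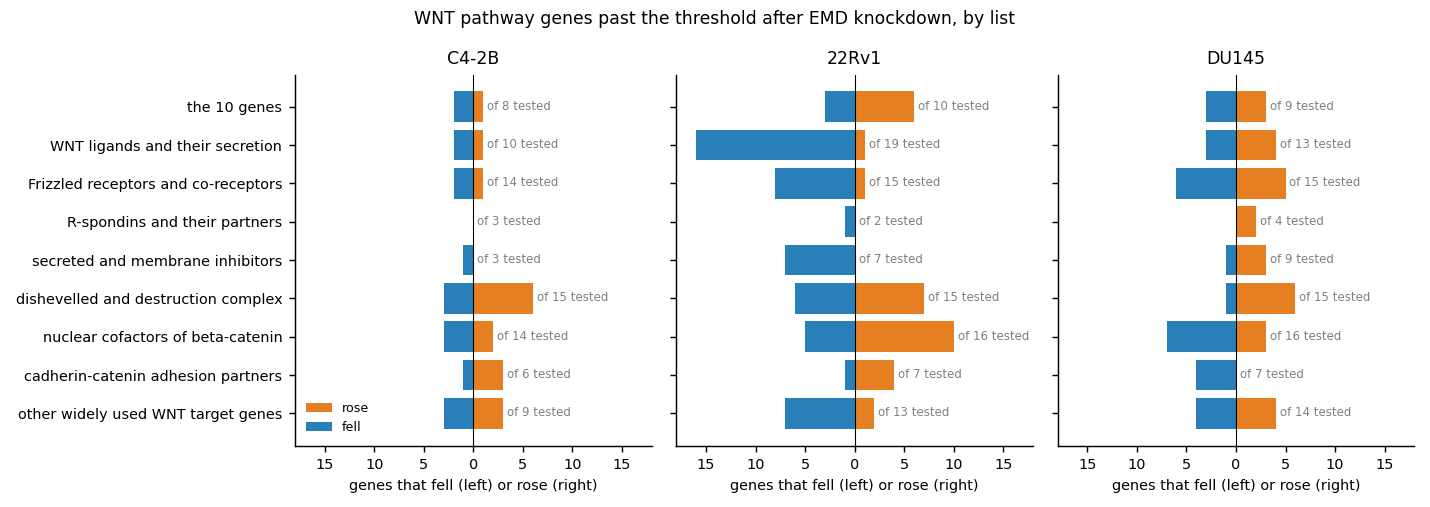
Number of genes that rose (right, orange) or fell (left, blue) after EMD knockdown at an edgeR adjusted p under 0.05, for the 10 genes and the 8 lists of other WNT pathway genes in each line, with the number tested beside each bar. The longest bar is that of WNT ligands and their secretion in 22Rv1, where 16 of 19 fell and 1 rose. Of these 19, 8 passed the filter on low counts through control libraries alone and had to be lower. Over all genes tested in 22Rv1, 34.3% fell and 33.5% rose.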

How the data were processed

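RNA-seq of 18 libraries was analysed from 3 gene tables of expected counts that the authors deposited as whole numbers. The submitters' processing notes name STAR, RSEM 1.3.1 and the build GRCh38. The annotation release and strandedness are not given in the sources used here. Low genes were already absent from the C4-2B (22360 entries) and 22Rv1 (25716 entries) tables, so a missing gene was not tested. From the DU145 table (37378 entries), 92 spike-in entries and 30 second copies of pseudoautosomal genes were left out. Library totals spanned 14722733 to 25112148 reads (C4-2B), 15602874 to 30788078 (22Rv1) and 21024352 to 43311727 (DU145), and deeper libraries have the smaller counting error. Replicates of a group differed by more than sampling noise (chi-square per degree of freedom 2.23 to 7.87), and none was merged.

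Within a line, filterByExpr kept genes (minimum count 10 and minimum total 15), TMM set the scale, and edgeR 4.0.16 in R 4.3.3 gave the quasi-likelihood test (Benjamini-Hochberg over all genes tested, threshold 0.05). Every adjusted p of a gene comes from edgeR unless another tool is named. CPM is edgeR's count level relative to library size over the tested genes, with TMM factors of that line; SE was obtained as the log2 difference divided by the square root of F. Differences between lines are interaction terms in 1 fit of all 18 libraries, over 17152 genes, in which the fold changes of a line can differ slightly from its own fit. Levels per kilobase use the median length of a gene's basic coding transcripts in GENCODE v29. Intervals of read ratios cover counting error only. The expected counts were used as deposited. The steps were tested on simulated data before use.

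The 10 genes, the pathway lists and the tests were chosen with earlier results of these data known. From the lists, up to 4 genes per list and line were named, those past the threshold, at least 2-fold changed and with groups that do not overlap, largest change first. Alternatives were RLE size factors, library totals, no filter, DESeq2 1.42.0, a fit of all 18 libraries, a replicate block and leaving out each library; the 12-library fit and the level windows of 22Rv1 were added after the data were seen.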

Additional observations from a re-analysis of the deposited data

Results flagged for a closer look

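Each value here is a difference between the knockdown effects of 2 lines (log2, first line less second) that passed an edgeR interaction test at an adjusted p under 0.05. Such differences are common among all genes tested, at 56.1% for C4-2B less 22Rv1, 45.7% for C4-2B less DU145 and 55.6% for 22Rv1 less DU145.

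For C4-2B less 22Rv1, the differences were -0.76 for CTNNB1, -0.68 for LGR4, 1.72 for AXIN2, 0.37 for TCF7L2, -1.02 for RNF43 and 3.11 for NKD1. That of TCF7L2 was close to the threshold (edgeR adjusted p = 0.0485) and missed it in 9 of 16 alternatives. For C4-2B less DU145, they were -0.23 for CTNNB1, -1.89 for LGR4, 1.19 for AXIN2 and -1.53 for LEF1. For 22Rv1 less DU145, they were 0.54 for CTNNB1, -1.22 for LGR4, -1.10 for LEF1, -0.53 for TCF7L2, 0.83 for RNF43 and -2.92 for NKD1. DKK1, which is in the tables of 22Rv1 and DU145, differed by 1.15 in the fit of those 12 libraries. Line, table and batch label coincide and cannot be told apart in any of these.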

How the results depend on the processing

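Of the 27 results of a gene in a line, 18 passed the threshold, and 14 of these did so in every alternative run. The losses are those of CTNNB1 in C4-2B, AXIN2 in C4-2B and DU145, and TCF7 in 22Rv1, given beside their values above but for the loss of TCF7 under the replicate block, given below. Over 12 alternatives each, adjusted p ran from 0.00293 to 0.0675 for CTNNB1 in C4-2B, from 0.00586 to 0.0837 for AXIN2 in C4-2B, from 0.00817 to 0.109 for AXIN2 in DU145 and from 0.0114 to 0.13 for TCF7 in 22Rv1. Directions turned only where no call was made. In C4-2B, leaving out 1 library gave -0.027 (without knockdown 2) to 0.141 for LEF1, -0.018 (without control 1) to 0.346 for TCF7, -0.187 to 0.030 (without control 2; 0.028 without knockdown 1) for RNF43, and -0.010 (without knockdown 1; -0.003 without control 1) to 0.124 for NKD1. TCF7L2 in 22Rv1 less its window median was at 0.217. Of the differences between lines, 15 of 16 calls held in every alternative, the exception being TCF7L2 in C4-2B less 22Rv1. TCF7 in C4-2B less DU145 passed without C4-2B control 3 (adjusted p = 0.0288), and AXIN2 in 22Rv1 less DU145 without DU145 knockdown 2 (0.0326). Scaling by library totals moved the share of called genes that rose to 57.0% in C4-2B, 42% in 22Rv1 and 57.1% in DU145, against 46.6%, 49.5% and 50.5% with TMM.

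Same-numbered libraries did not deviate together in C4-2B (r -0.04 to 0.02) or 22Rv1 (-0.02 to 0.03). In DU145 r ran from 0.03 to 0.29, and knockdown 1 (0.13) and 2 (0.29), but not 3, were closest to the control of their own number. The labels state no pairing and the numbers are not taken as pairs, though for DU145 these values do not settle it. With the replicate block, 3078 genes rose and 3545 fell in C4-2B, 5540 and 5606 in 22Rv1, and 4999 and 4861 in DU145; among the 10 genes the replicate block ended the call of TCF7 in 22Rv1 (adjusted p = 0.0557).

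Depth limits LGR5 in DU145 (9 reads in all) and the scarce genes LEF1, TCF7, AXIN2, NKD1 and RNF43 where they lie near 1 or 2 CPM.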
